A study of Mus musculus with 22 samples.

Results

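Metallothioneins are small, cysteine-rich proteins that bind zinc and copper and buffer them inside the cell. Mt1 and Mt2 encode the broadly expressed forms, and their transcription is known to rise with zinc, other metals, oxidative stress and glucocorticoids. Mtf1 encodes the zinc-sensing transcription factor that binds metal response elements in their promoters, and Slc30a1 encodes a zinc exporter of the plasma membrane that is a further known target of it. These 4 genes are described here out of 48709 genes in the count tables. Mt1 was chosen by its measured change after Sav1 loss in LIN9 KO ventricles, and the other 3 genes were added for their known roles in the zinc response. All 4 were chosen with earlier results of these data known, which the p-values below do not take into account. The values of all 4 genes in that contrast are therefore given as a description with no test. So are the values of Mt1 in every comparison that holds a group of that contrast.

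RNA was sequenced from heart ventricles of mouse embryos of stage E13.5. There were 18 libraries, 3 for each genotype of each of the 2 experiments. All embryos carried Nkx2.5-Cre, which deletes floxed alleles in cardiac precursor cells, so cells of the ventricle outside that lineage can keep both genes. The first experiment compared LIN9 wt (control) with LIN9 KO ventricles, both with wild-type Sav1. The second experiment crossed both LIN9 states with wild-type Sav1 and Sav1 KO, which gave 4 genotypes, called control, LIN9 KO, Sav1 KO and double KO here. LIN9 is a subunit of the MuvB complex, which represses or activates genes according to its partners. With B-MYB it forms the MMB complex, which activates mitotic genes. SAV1 is a scaffold of the Hippo kinases. The study gives the LIN9 control as Lin9 fl/+, which the sample labels call wild-type, and the background is C57/Bl6. Library totals ran from 9485600 to 9615270 counts in the first experiment and from 2770740 to 2999880 in the second. Levels are in CPM (counts scaled to a common library size), and 1 count stood for 0.105 CPM and 0.342 CPM on average. The labels do not say whether the libraries of a group came from separate embryos or pools. For LIN9 KO against LIN9 wt, a figure legend of the study counts 2 biological replicates, with a triplicate in each. It is thus not known whether the 3 libraries of a group are independent, and p-values measure the spread between these libraries only.

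Lin9 and Sav1 were read first as a check of the labels. Lin9 was at 25.6 ± 4.18 CPM in control and 20.6 ± 1.21 CPM in LIN9 KO ventricles of the first experiment (SD, n = 3 each). In the second experiment it was at 26.8 ± 3.23 CPM in control, 15.5 ± 2.37 CPM in LIN9 KO, 25.4 ± 6.11 CPM in Sav1 KO and 22.7 ± 3.85 CPM in double KO ventricles. Sav1 was at 57.5 ± 3.87 CPM in control and 49.7 ± 2.30 CPM in LIN9 KO ventricles, against 40.7 ± 3.98 CPM in Sav1 KO and 42.2 ± 1.73 CPM in double KO ventricles. Group means of each targeted gene were lower in every knockout group than in its own control, but the Lin9 values of double KO and Sav1 KO ventricles overlapped, as did those of double KO and control ventricles. The LIN9 KO and double KO libraries were not alike in Lin9, which was higher in every double KO library, with a ratio of the means of 1.47 and a log2 fold change of 0.56 given with no test. The interaction for Lin9 was 0.64 on the log2 scale, with a 95% interval from 0.093 to 1.19 and an adjusted p of 0.710. Lin9 changed by -0.31 on the log2 scale in the first experiment (adjusted p = 0.130), by -0.80 in LIN9 KO against control in the second (adjusted p = 0.00270) and by -0.16 in double KO against Sav1 KO (adjusted p = 0.586). Sav1 changed by -0.50 in Sav1 KO against control (adjusted p = 0.318) and by -0.44 in double KO against control (adjusted p = 0.00873). The unadjusted p-values of Sav1 by edgeR's quasi-likelihood test were 0.000305 and 0.000996. Adjustment depends on all genes tested, and these comparisons called 3 and 3647 genes. In double KO against LIN9 KO, Sav1 changed by -0.23 ± 0.12 (SE), given with no test. In LIN9 KO against control of the second experiment it changed by -0.21 (adjusted p = 0.225). Lin9 thus passed the test in LIN9 KO against control of the second experiment and missed it in the other comparisons given here. The counts cover whole genes rather than the deleted exons, so they check the deletions only in part.

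Mt1 (ENSMUSG00000031765) lies on chr8:94179082-94180327 of mm10 on the plus strand, and Mt2 (ENSMUSG00000031762) lies upstream of it on chr8:94172664-94173568, on the same strand. Mt1 overlaps no other gene of the GENCODE M21 annotation. Mt2 lies mostly under the antisense gene Gm45774, which covers 73.5% of its 588 exonic bases and leaves 156 bases free. Mtf1 (ENSMUSG00000028890, chr4:124802104-124849800) and Slc30a1 (ENSMUSG00000037434, chr1:191906767-191913247) are under other genes along 8.10% and 14.5% of their exonic bases. In these tables, 514 of 527 protein-coding genes that lie within introns of a gene on the other strand had 0 counts in all 18 libraries, against 2937 of 20531 genes that lie within no other gene. Reads that fall on 2 annotated genes were thus largely left out whatever their strand. The Mt2 count is therefore a small part of its reads, and reads of Mt2 and of an antisense transcript cannot be told apart in the part that is shared. Gm45774 itself had 3 counts over the 18 libraries.

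**Figure D1:**
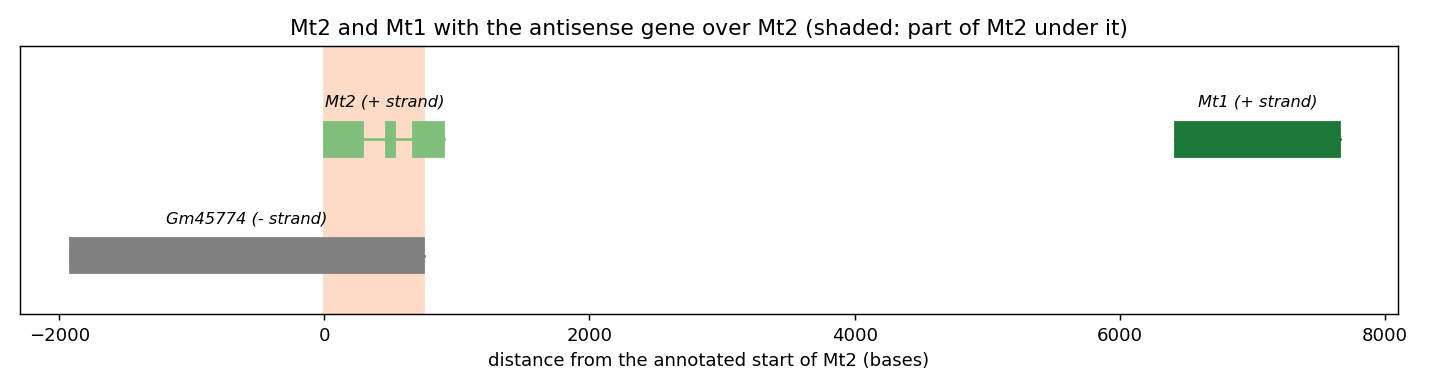
Map of Mt2, Mt1 and Gm45774 by distance in bases from the annotated start of Mt2, with boxes for exons (all transcripts merged) and lines for genes. The shaded stretch is the part of Mt2 under Gm45774, and only the last 156 exonic bases of Mt2 lie outside it.

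In the first experiment, Mt1 and Mt2 were higher in LIN9 KO than in control ventricles. Mt1 was at 29.7, 25.8 and 39.7 CPM in the control libraries and at 51.9, 46.1 and 74.8 CPM in the LIN9 KO libraries. All LIN9 KO libraries lay above all control libraries, where 36.6% of all genes tested did not overlap, and replicate 3 was the highest of its group in both. The means of 31.7 ± 7.16 and 57.6 ± 15.2 CPM (SD, n = 3 each) differed by 0.86 ± 0.21 on the log2 scale (SE), with an adjusted p of 0.0198 by edgeR's quasi-likelihood test. Without control replicate 1 the change was 0.81 with an adjusted p of 0.0609, and over all alternatives the adjusted p ran from 1.3e-06 to 0.0609.

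Mt2 gave 8, 5 and 12 counts in the control libraries and 23, 20 and 35 counts in the LIN9 KO libraries of the first experiment. The groups did not overlap, and all 6 counts were low. Its means were 0.866 ± 0.362 and 2.73 ± 0.778 CPM (SD, n = 3 each), a log2 fold change of 1.64 ± 0.36 (SE) with an adjusted p of 0.00421. Mt1 and Mt2 thus passed the test, 2 of the 4 genes, in a comparison in which 20.9% of all 19752 genes tested were called. That background was broad, so the number of genes called says little about these 4 genes as a group.

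The regulator and the exporter did not pass the test. Mtf1 was at 26.3, 25.8 and 25.9 CPM in control and at 23.7, 20.8 and 19.5 CPM in LIN9 KO libraries of the first experiment. Its groups did not overlap, but the log2 fold change of -0.28 ± 0.12 (SE) had an adjusted p of 0.116. Slc30a1 was at 23.0, 22.7 and 22.9 CPM in control and at 28.4, 23.8 and 22.0 CPM in LIN9 KO libraries, with overlapping groups. Its log2 fold change was 0.12, with a 95% interval from -0.15 to 0.38 and an adjusted p of 0.589.

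**Figure D2:**
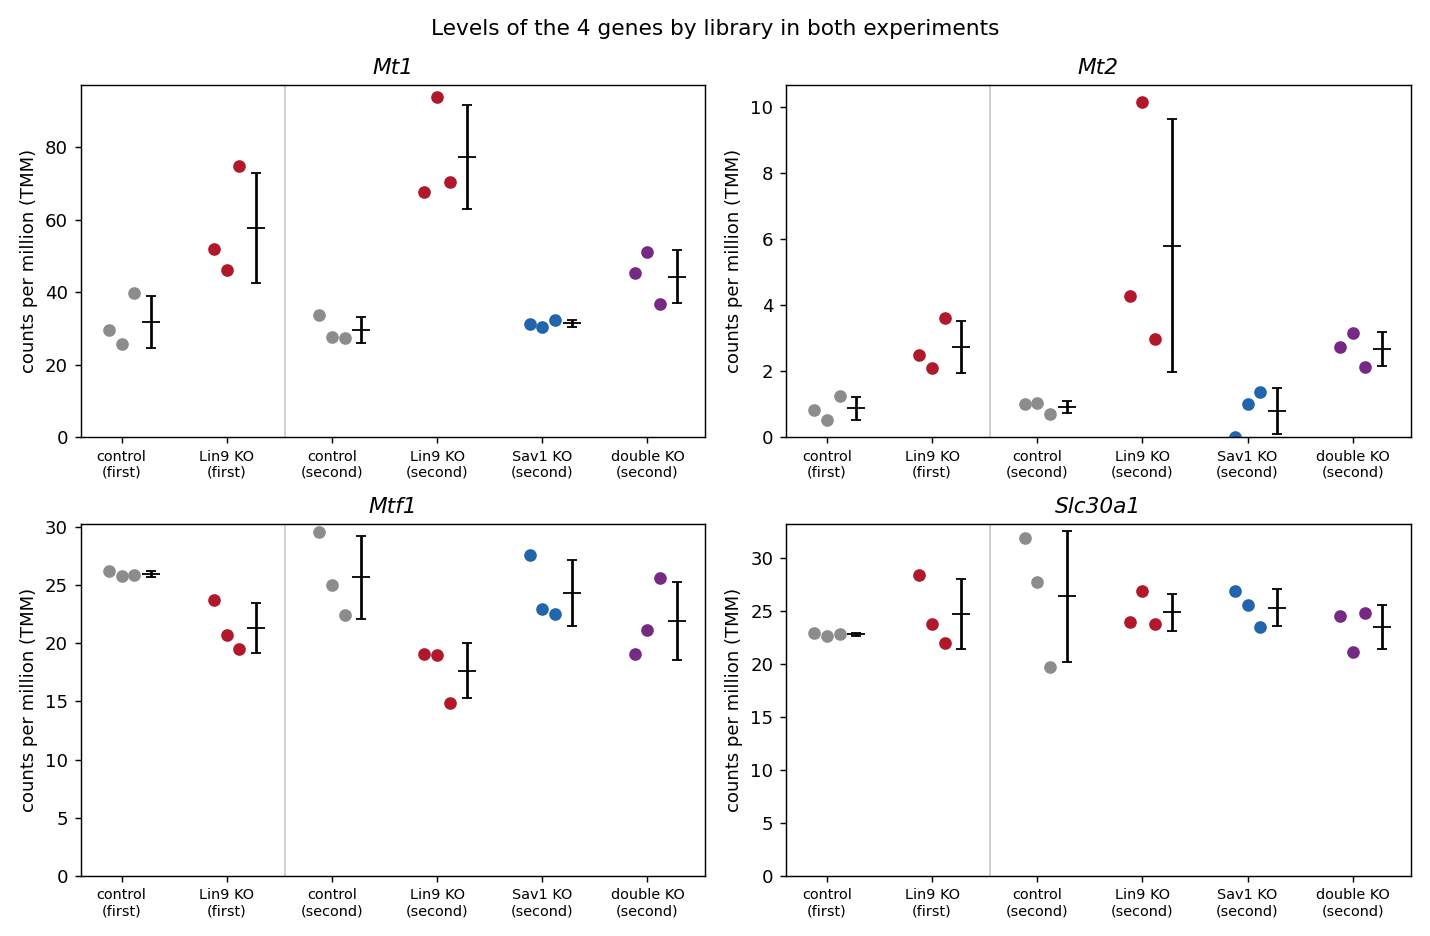
CPM (TMM-normalized library sizes) of Mt1, Mt2, Mtf1 and Slc30a1 in each library (points, replicates 1 to 3 from left to right), with the group mean and SD beside them. Mt1 in LIN9 KO libraries of the second experiment lay between 67.7 and 93.8 CPM and in double KO libraries between 36.6 and 51.0 CPM.

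The second experiment held the same comparison in other libraries. Mt1 was at 33.6, 27.7 and 27.3 CPM in control and at 67.7, 93.8 and 70.4 CPM in LIN9 KO libraries, with no overlap, as for 35.1% of all genes tested. The ratio of the means was 2.62 and the log2 fold change 1.39, given with no test because the LIN9 KO libraries also entered the contrast that picked Mt1. Mt2 had 3, 3 and 2 counts in control and 13, 31 and 8 counts in LIN9 KO libraries. The higher values of Mt2 were uneven, with replicate 2 far above the others. Its log2 fold change was 2.64 ± 0.57 (SE), with an adjusted p of 0.000826. Without LIN9 KO replicate 2 it was 1.93, with an adjusted p of 0.0255, within a range from 4.31e-06 to 0.0255 over all alternatives. These LIN9 KO libraries entered the contrast that picked Mt1, and Mt2 varied with Mt1 over the 12 libraries (Pearson's r = 0.884). The p-values of Mt2 do not take that into account.

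Mtf1 moved the other way in this pair of groups. It was at 29.6, 25.0 and 22.5 CPM in control and at 19.1, 19.0 and 14.9 CPM in LIN9 KO libraries, which lay below all control libraries. The log2 fold change of -0.53 ± 0.17 (SE) had an adjusted p of 0.0244. The call was lost with DESeq2 (adjusted p = 0.0728), without control replicate 1 (adjusted p = 0.108) and without LIN9 KO replicate 3 (adjusted p = 0.0803), within a range from 0.0181 to 0.108 over all alternatives. Slc30a1 gave a log2 fold change of -0.09, with a 95% interval from -0.43 to 0.25 and an adjusted p of 0.768. Of the 3 genes tested, Mt2 was called higher and Mtf1 lower, where 23.2% of all 17675 genes tested were called.

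After loss of Sav1 alone, each of the 4 genes overlapped with its control libraries, in a comparison in which only 12.1% of all genes tested did not overlap. Mt1 was at 31.3, 30.4 and 32.4 CPM in Sav1 KO libraries, inside the range of the control libraries. Its log2 fold change was 0.08, with a 95% interval from -0.24 to 0.41 and an adjusted p of 0.999. These values come from edgeR's fit over 12 libraries, whose spread includes the libraries of the contrast that picked Mt1. In edgeR with the 6 libraries alone the change of Mt1 was 0.084 (adjusted p = 0.987). Mt2 had 0, 3 and 4 counts, Mtf1 was at 24.3 ± 2.81 CPM and Slc30a1 at 25.4 ± 1.71 CPM (SD, n = 3). By edgeR's quasi-likelihood test and by DESeq2, 0 of the 4 genes were called, and their unadjusted p-values in edgeR's fit over all genes lay between 0.597 for Mt1 and 0.823 for Mt2. Over all genes 3 were called, which is 0.017% of those tested, and 693 had an unadjusted p under 0.05.

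The contrast that picked Mt1 compared double KO with LIN9 KO ventricles. As given above, these groups differed in Lin9 too, with a ratio of the means of 1.47. The part of Lin9 in the values below was not tested. Mt1 was at 45.3, 51.0 and 36.6 CPM in the double KO libraries, below all LIN9 KO libraries (15.1% of all genes tested did not overlap), and the ratio of the means was 0.573. Mt2 had 8, 9 and 6 counts in double KO libraries, and its CPM values overlapped with those of LIN9 KO libraries. Mtf1 was at 19.1, 21.1 and 25.6 CPM in double KO libraries, above all LIN9 KO libraries by a narrow margin. Slc30a1 was at 24.5, 21.1 and 24.9 CPM, and its groups overlapped. The log2 fold changes were -0.80 for Mt1, -1.12 for Mt2, 0.30 for Mtf1 and -0.08 for Slc30a1. Without LIN9 KO replicate 2, the library with the highest Mt2 count, the value of Mt2 was -0.43. Over all genes this contrast called 2, or 0.0113% of those tested, from which nothing is read for these genes.

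Against Sav1 KO ventricles, Mt1 remained higher in double KO ventricles, with means of 31.3 ± 1.01 and 44.3 ± 7.26 CPM (SD, n = 3 each) and no overlap, as for 41.1% of all genes tested. The ratio of the means was 1.41, and the log2 fold change of 0.50 is given with no test. Mt2 was also higher in every double KO library than in any Sav1 KO library, with a log2 fold change of 1.71 ± 0.69 (SE). The change was 1.15 without Sav1 KO replicate 1, which had 0 counts, and 2.31 without Sav1 KO replicate 3. Its adjusted p was 0.0663 and ran from 0.0315 to 0.254 over the alternatives. It passed the threshold in edgeR with no filter on low counts (0.0315), with the replicate block (0.0413) and with the 6 libraries alone (0.0326). Mtf1 and Slc30a1 changed by -0.15 and -0.11 on the log2 scale, with adjusted p-values of 0.577 and 0.697. In the fit without a block, with the filter and over 12 libraries, 0 of the 3 genes tested were called by edgeR, and 0 by DESeq2, where edgeR called 23.4% of all genes, and only Mt2 of them had an unadjusted p under 0.05 (0.0172 in the fit over all genes).

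Against control ventricles, the double KO had higher Mt1, with a log2 fold change of 0.58 given with no test and no overlap, as for 37.4% of all genes tested. Mt2 changed by 1.52 ± 0.67 on the log2 scale (SE), with an adjusted p of 0.103 and no overlap. Mtf1 and Slc30a1 changed by -0.23 and -0.17, with adjusted p-values of 0.372 and 0.520. With single libraries left out, Mtf1 ran from -0.38 to -0.11 and Slc30a1 from -0.34 to -0.012. None of these 3 genes was called by edgeR or DESeq2, where 20.6% of all genes were, and Mt2 had an unadjusted p of 0.0281 in the fit over all genes.

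**Figure D3:**
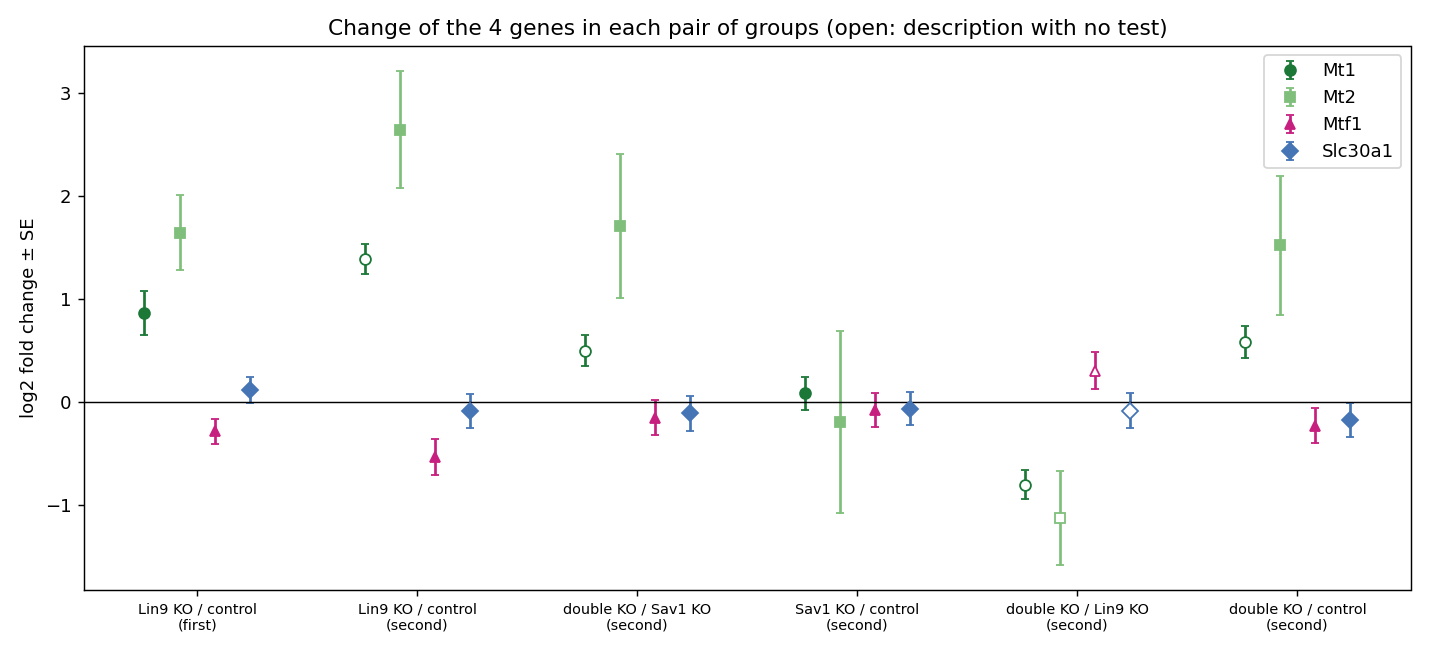
Log2 fold change with its standard error of the 4 genes (colour and shape) for each pair of groups, with open symbols for values given with no test. Mt1 and Mt2 lay above 0 in each comparison of a LIN9 KO with a LIN9 wt background, and Slc30a1 lay between -0.17 and 0.12 throughout.

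The interaction asks whether Sav1 loss acts differently in the 2 LIN9 backgrounds. It was -0.89 on the log2 scale for Mt1, which is a description. For Mt2 it was -0.93 ± 1.01 (SE), with a 95% interval from -3.00 to 1.13 and an adjusted p of 0.915, so the interval spans 0 widely. With single libraries left out it ran from -1.47 (without Sav1 KO replicate 1) to -0.24 (without LIN9 KO replicate 2), and it was -0.33 without Sav1 KO replicate 3. For Mtf1 it was 0.38 ± 0.24 and for Slc30a1 -0.02 ± 0.24 (SE). Over all genes, 0 passed the threshold in edgeR (0%) and 0 in DESeq2, and 1156 had an unadjusted p under 0.05.

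The order of Mt1 levels in the second experiment was LIN9 KO, double KO, Sav1 KO and control, and the last pair did not differ beyond its spread. For Mt2 the order was LIN9 KO, double KO, control and Sav1 KO, and only the step from double KO to control had no overlap. For Mtf1 control was highest, followed by Sav1 KO, double KO and LIN9 KO, and all gaps between neighbours were smaller than their summed SDs. The 4 groups overlapped between neighbours for Slc30a1. Per kilobase of exon outside other genes, control ventricles of the second experiment held 23.7 ± 2.80 CPM of Mt1, 5.80 ± 1.19 of Mt2, 3.14 ± 0.440 of Mtf1 and 5.90 ± 1.38 of Slc30a1 (SD, n = 3). The Mt2 value is a low estimate, since reads that reach into the shared part are lost from its short free stretch. With all transcripts merged, the exon of Mt1 spans its whole gene of 1246 bases, so its value depends on that annotation too.

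Mt1 and Mt2 both passed the test in the first experiment, so the stretch before the start of each is shown, with matches to the core of the metal response element in capitals. The core was searched as TGCACNC and TGCGCNC on both strands in the 250 bases before the RefSeq start (GRCm38.p6), and all 4 genes were found in that table. The windows are chr8:94178839-94179088 for Mt1 and chr8:94172368-94172617 for Mt2, both on the plus strand.
Mt1: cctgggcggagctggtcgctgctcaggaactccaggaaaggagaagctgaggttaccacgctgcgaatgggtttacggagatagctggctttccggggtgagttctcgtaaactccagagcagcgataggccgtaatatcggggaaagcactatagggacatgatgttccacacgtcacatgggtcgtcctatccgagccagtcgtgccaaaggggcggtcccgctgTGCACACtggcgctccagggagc
Mt2: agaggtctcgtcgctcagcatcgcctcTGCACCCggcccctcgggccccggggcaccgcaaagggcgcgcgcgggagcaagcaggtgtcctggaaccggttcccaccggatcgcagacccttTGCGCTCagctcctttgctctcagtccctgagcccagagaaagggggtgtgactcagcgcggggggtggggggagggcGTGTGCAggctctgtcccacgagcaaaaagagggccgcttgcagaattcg
Mt1 had 1 match in this window, at positions -23 to -17 from the start, and Mt2 had 3, which begin at positions -223, -128 and -50. Slc30a1 had 1 match and Mtf1 had 0. Of all 32851 promoters of this length, 21.4% held at least 1 match, 5.17% at least 2 and 1.26% at least 3. Mt1 has 3 annotated starts of coding transcripts, the last 159 bases after the first. After these windows had been seen, the 250 bases before the last coding start were searched as well, and held 5 matches for Mt1, 4 for Mt2, 1 for Slc30a1 and 0 for Mtf1. The shares above are for windows before RefSeq starts and give no background for this window. A match describes letters only, and no binding was measured here.

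Of the other metallothioneins, Mt4 had 0 counts in all 18 libraries. Mt3, known best from the brain, was at 10.3 ± 1.19 CPM in control and 16.2 ± 3.82 CPM in LIN9 KO ventricles of the second experiment (SD, n = 3 each). Its log2 fold change was 0.65 ± 0.22 (SE), with an adjusted p of 0.0333. In the first experiment it was 0.28 ± 0.17, with an adjusted p of 0.276. Within 100 kb of Mt1 the annotation holds 9 other genes. Bbs2, a gene of cilia, was called in no comparison tested. Nup93, a nucleoporin gene, fell by 0.45 on the log2 scale in LIN9 KO ventricles of the second experiment (adjusted p = 0.00465), and in the first experiment its change was -0.09 (adjusted p = 0.695). Gm39228 had 0 counts, as had Rpl10-ps5 and Gm45804, which lie within Nup93, where reads were left out.

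The Slc30a family exports zinc from the cytosol, and of its 9 genes tested, which include Slc30a1, 1 was called higher and 1 lower after LIN9 loss in either experiment. That is near the share of all genes called, 20.9% in the first and 23.2% in the second experiment. Slc30a4 fell from 45.1 ± 1.61 to 36.2 ± 2.33 CPM (SD, n = 3 each), with a log2 fold change of -0.32 ± 0.10 and an adjusted p of 0.0396. In the second its change was -0.49 ± 0.16, with an adjusted p of 0.0230. The gene called higher was Slc30a10, which is better known for manganese export. It lies below the level set for named genes, with a mean of 4.21 CPM in the first experiment, and was chosen after its values were seen. It is under Gm2061 along 12.4% of its exonic bases. It rose by 3.62 ± 0.34 (SE) in the first experiment (adjusted p = 5.05e-06) and by 2.78 ± 0.44 in the second (adjusted p = 2.08e-05).

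The Slc39a family imports zinc into the cytosol, and 1 of its 13 genes tested was called higher in either experiment, with 0 lower, below that share. This was Slc39a8, which rose from 23.7 ± 6.93 to 59.2 ± 9.47 CPM in the first experiment, by 1.32 ± 0.19 on the log2 scale (adjusted p = 0.000806). It rose from 23.0 ± 2.86 to 42.3 ± 2.42 CPM in the second, by 0.88 ± 0.15 (adjusted p = 4.95e-05). In double KO against Sav1 KO ventricles its change was 0.76 ± 0.15 (adjusted p = 0.000306). Slc39a6 was called in double KO against control ventricles only, at 0.52 ± 0.15 (adjusted p = 0.0122), and whether it differed from the other comparisons was not tested. The median log2 fold change of LIN9 KO against control in the first experiment was 0.12 for exporters, which is the value of Slc30a1 itself, and 0.048 for importers, beside 0.016 over all genes tested. These medians were 0.13, 0.16 and 0.0086 in the second.

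**Figure D4:**
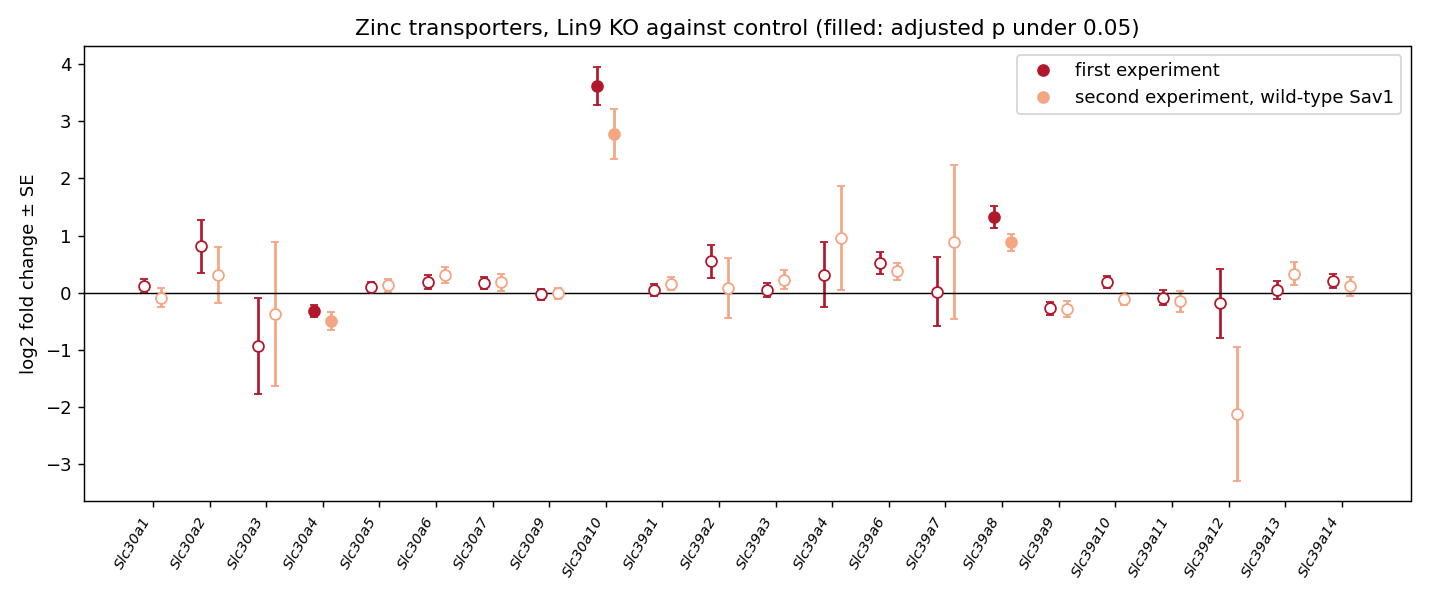
Log2 fold change with its standard error of LIN9 KO against control for each tested zinc transporter in both experiments, with filled symbols for an adjusted p under 0.05. Slc30a4, Slc30a10 and Slc39a8 were called in both experiments.

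Other responses that act on metallothionein genes are read beside the share of all genes called, 20.9% in the first and 23.2% in the second experiment. Of 11 genes of the NRF2 response tested, 5 were called higher and 0 lower in LIN9 KO ventricles of the first experiment, and 4 higher and 1 lower in the second. Hmox1, the haem-degrading oxygenase, rose from 28.6 ± 1.12 to 81.2 ± 19.0 CPM in the first experiment (adjusted p = 2.02e-05). In the second it rose by 2.07 ± 0.15 on the log2 scale (adjusted p = 7.5e-11), and by 1.82 ± 0.16 in double KO against Sav1 KO ventricles (adjusted p = 1.26e-09). In that last comparison Hmox1 was the 1 gene of the list called higher, and Keap1, which restrains NRF2, and Txnrd1, a thioredoxin reductase, were called lower, at -0.46 and -0.33 (adjusted p = 0.0195 and 0.0377). These 3 of 11 genes are near the 23.4% of all genes called there. Srxn1, a sulfiredoxin, rose by 0.77 and 0.86 in the first and the second experiment, and Gclm, a subunit of the enzyme that limits glutathione synthesis, rose by 1.02 in the first, with 90.1% of its exonic bases under other genes. Prdx1, a peroxiredoxin, fell by 0.39 on the log2 scale in the second (adjusted p = 0.00752). The median log2 fold change of the list was 0.29 and 0.17 in the first and the second experiment.

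Of 9 genes of the glucocorticoid response tested, 1 was called higher and 1 lower in the first experiment, and 2 higher and 1 lower in the second. Per1, a clock gene, rose by 0.43 and 0.91 on the log2 scale, whereas Tsc22d3, a widely used glucocorticoid marker, fell by 0.70 and by 0.48 on that scale. Of 11 genes of the hypoxia response, 2 were called higher in the first and 7 in the second experiment, with 0 lower in either. Egln3, an oxygen-sensing hydroxylase, rose by 1.70 in the first and 2.00 in the second, and Bnip3, a mitophagy receptor, by 0.80 and 1.43, with 57.9% of its exonic bases under other genes. Of 8 copper genes tested, 1 and 2 were called higher, among them the copper pump Atp7a at 0.71 and 0.85. The glucocorticoid and copper counts of both experiments and the hypoxia count of the first are near or below the share of all genes called, apart from the second experiment's glucocorticoid count of 3 of 9. In Sav1 KO against control ventricles 0 genes of these lists were called by edgeR, where 0.017% of all genes were, so the 0 says nothing about the lists. Over Mt3 and the zinc, copper and stress lists together, with Slc30a1 left out, 61 genes were tested. Of these, 13 (21.3%) were called in LIN9 KO against control ventricles of the first experiment and 21 (34.4%) in the second, beside 20.9% and 23.2% of all genes. There were 13 (21.3%) called in double KO against Sav1 KO and 14 (23%) in double KO against control ventricles, beside 23.4% and 20.6% of all genes.

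The genes with a pattern most like Mt1 were taken by Pearson's r of log2 CPM over the 12 libraries of the second experiment among 12393 genes, as a description over libraries that share groups. They were Maff (r = 0.965), Ftl1 (0.959), Sqstm1 (0.956), Gsta4 (0.955) and Tbrg1 (0.955). Maff encodes a small Maf transcription factor, Ftl1 a ferritin chain, Sqstm1 the autophagy receptor p62 and Gsta4 a glutathione transferase. Over the 6 libraries of the first experiment their r with Mt1 was 0.957, 0.796, 0.820, 0.817 and 0.729. By Spearman's rho of CPM, 0 of these 5 genes were among the first 5, and they ranked from 8 for Maff to 109 for Gsta4. Mt2, below the level set for that ranking, had an r of 0.884 over the 12 libraries and 0.984 over the 6. For Mtf1 these values were -0.745 and -0.842, and for Slc30a1 -0.0521 and 0.172.

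Levels of cell type markers also differed between LIN9 KO and control ventricles. In bulk tissue, a change in the share of a cell type and a change of RNA per cell cannot be told apart. The share of all genes called was 20.9% in the first and 23.2% in the second experiment. Of 12 cardiomyocyte markers tested, 7 were called lower and 1 higher in LIN9 KO ventricles of either experiment, led by Myh7 in level, with Actc1 and Tnnc1 at 0 counts, both under other genes along all their exonic bases, where reads were left out. Their summed level was 24136, 25182 and 24418 CPM in control and 12967, 17123 and 12652 CPM in LIN9 KO libraries of the first experiment. Erythroid markers were called higher for 7 of 8 genes tested in the first and 8 of 8 in the second experiment, with Hba-a1 the most abundant and Alas2, which also lies wholly under other genes, at 0 counts. Their sum was 3754, 2641 and 3604 CPM in control and 26196, 13385 and 9903 CPM in LIN9 KO libraries of the first experiment.

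The erythroid sum of the second experiment was 1876, 1532 and 1550 CPM in control, 5961, 8714 and 11123 CPM in LIN9 KO, 1316, 1245 and 1606 CPM in Sav1 KO and 9121, 5661 and 3229 CPM in double KO libraries. LIN9 KO and double KO libraries overlapped in this sum. In double KO against LIN9 KO, described with no test, 0 of 8 erythroid genes had a positive log2 fold change (median -0.51). The hypoxia list had 1 of 11 (median -0.36) and the NRF2 list 3 of 11 (median -0.21). Macrophage markers had 6 of 8 (median 0.16) and cardiomyocyte markers 8 of 12 (median 0.021). The cardiomyocyte sum of the second experiment was 26928, 27738 and 27882 CPM in control, 16724, 15014 and 15056 CPM in LIN9 KO, 29019, 28508 and 29953 CPM in Sav1 KO and 14441, 16804 and 17986 CPM in double KO libraries. Macrophage markers, led by Lyz2, were called higher for 7 of 8 genes in the first and 6 of 8 in the second experiment. Their sum was 128 ± 5.80 CPM in control, 241 ± 15.3 CPM in LIN9 KO, 109 ± 10.1 CPM in Sav1 KO and 270 ± 15.6 CPM in double KO ventricles. Fibroblast markers were called higher for 6 of 7 genes and epicardial markers for 5 of 6 in either experiment. Of 8 endothelial genes, 3 were called higher in either experiment, with 0 lower in the first and 1 lower in the second. Of 2 hepatocyte genes tested in the second experiment, 1 was called higher, with a sum over the list of 2.26 ± 0.343 CPM in control and 8.32 ± 2.30 CPM in LIN9 KO ventricles of that experiment and with Alb, Fgb and Serpina1a at 0 counts in it. Of 6 hepatocyte genes tested in the first experiment, 2 were called higher and 1 lower, and their sum was 3.33 ± 1.05 CPM in control and 10.1 ± 6.47 CPM in LIN9 KO ventricles. For Mt1 and Mt2, their part in the result was not tested.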

How the data were processed

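The authors deposited raw read counts for each Ensembl gene. They mapped polyA RNA reads with TopHat 2.1.0 and Bowtie2 to mm10, reduced samples to the smallest number of mappable reads and counted with summarizeOverlaps. The overlap mode and strand setting are not given in the sources used here. Other deposited tables hold the authors' own comparisons (log2 fold change, log2 CPM, p and FDR), which were not used, and 4 ChIP-seq samples were not analysed. Identifiers present more than once (4) were kept once.

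Counts were TMM-normalized and tested with edgeR 4.0.16 in R 4.3.3 (robust quasi-likelihood) after genes with a mean count of 1 or less had been left out (19752 and 17675 genes tested), and p-values were adjusted by Benjamini-Hochberg with a threshold of 0.05. All 4 genes passed this filter in both experiments. The 12 libraries of the second experiment shared 1 fit. DESeq2 1.42.0, other size factors, filters, a replicate block and left-out libraries served as alternatives. The fit was also run on simulated data, from which nothing is read here. Log2 CPM used a prior count of 2. Gene positions are from GENCODE M21, which held 48349 of the 48709 identifiers, and promoter sequences from RefSeq (GRCm38.p6). Named genes of a list are up to 3 per direction with the lowest adjusted p and at least 5 CPM. The members and lists were chosen with earlier results of these data known.

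Same-numbered libraries were checked for pairing by the correlation of their deviations from group means, which had to exceed 0.1 for every pair. Over 12394 genes of at least 5 CPM it held for LIN9 KO and control (0.257 to 0.637) and for Sav1 KO and control (0.102 to 0.330) in the second experiment. Over all 17675 genes tested it held for neither (lowest 0.0891 and 0.0193). The pairing comes from these values alone.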

Additional observations from a re-analysis of the deposited data

How the results depend on the processing

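Of 346 recomputed values of the 4 genes, 329 kept their direction and their side of the threshold, or, where no test was made, stayed within 1 SD. In LIN9 KO against control ventricles of the first experiment, leaving out single libraries gave Mt1 changes from 0.63 to 1.06 (adjusted p up to 0.0609) and 2722 to 4223 genes called, the lowest without control replicate 3. In the second experiment Mtf1 fell short of the threshold with DESeq2 (-0.55, adjusted p = 0.0728), and single libraries left out gave -0.62 to -0.44. Slc30a1 changed sign there, from -0.26 to 0.053. Mt2 in double KO against Sav1 KO ventricles passed the threshold with no filter (1.71, adjusted p = 0.0315), with the replicate block (1.72, adjusted p = 0.0413) and with the 6 libraries alone (1.71, adjusted p = 0.0326). In Sav1 KO against control, single libraries left out gave Mt2 -0.79 to 0.36, Mtf1 -0.19 to 0.039 and Slc30a1 -0.23 to 0.099. In double KO against LIN9 KO they gave Mt2 -1.42 to -0.43, and in the interaction Slc30a1 -0.16 to 0.15. The cause was not tested.

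In Sav1 KO against control, 22 genes were called with no filter, 31 with the 6 libraries alone and 0 to 2 with single libraries left out. In double KO against LIN9 KO there were 46 with DESeq2, 309 with no filter, 0 with a mean count of at least 10, 84 with the replicate block, 0 with the 6 libraries alone and 0 to 378 with single libraries left out, the highest without LIN9 KO replicate 3. In the interaction there were 17 with no filter and 0 to 64 with single libraries left out. The replicate block changed no other call of the 4 genes and no other count by over 1.5 times. Where numbers did not pair, correlations ran from -0.104 to 0.285 over genes of at least 5 CPM. With a mean count of at least 10, Mt2 was not tested in the second experiment. Mt2 had 0 to 35 counts per library, which limits the precision of its values.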
